A study of Caenorhabditis elegans with 6 samples.

Results

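The worm breaks down propionate by 2 routes, and the 9 genes of these routes were read in whole-worm RNA from Caenorhabditis elegans. The genes were chosen by name from the 46926 genes of the deposited count table: 5 of the propionate shunt (acdh-1, ech-6, hach-1, hphd-1 and alh-8) and 4 of the canonical pathway (pcca-1, pccb-1, mce-1 and mmcm-1). All 9 were found, and all 9 were among the 17022 genes that passed the filter on low counts. In the FUDR group, wild-type worms labelled L4, the last larval stage, were exposed to 50 µM FUDR (5-fluoro-2′-deoxyuridine), a drug that blocks the making of thymidylate, with 3 libraries. The OP50 group was untreated wild-type worms of the same labelled stage on plates seeded with Escherichia coli OP50, also with 3 libraries. The labels give no strain name, no length of exposure and nothing on whether replicate libraries had cultures of their own. The p-values therefore set the difference against a spread that may be technical.

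Propionate arises as propionyl-CoA from the breakdown of valine, isoleucine, methionine, threonine and odd-chain fatty acids, and it is toxic when it accumulates. In the canonical pathway propionyl-CoA carboxylase (subunits PCCA-1 and PCCB-1), methylmalonyl-CoA epimerase (MCE-1) and methylmalonyl-CoA mutase (MMCM-1) turn it into succinyl-CoA, and the mutase needs vitamin B12. In the shunt, ACDH-1, ECH-6, HACH-1, HPHD-1 and ALH-8 act in turn and need no vitamin B12. OP50 is a diet poor in vitamin B12, and acdh-1 is known as a gene that is active on such diets and silenced when the vitamin is plentiful.

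Reads counted in genes numbered 61312034 to 84750980 per library in FUDR and 66005990 to 99234226 in OP50. The smallest count of any of the 9 genes in a library was 1224 and the largest 97789. Levels are given as CPM, reads per 1000000 reads counted in genes, after TMM scaling. Marker genes of intestine, hypodermis, body wall muscle, neurons, germline and sperm had reads in every library. The germline markers summed to between 2189 and 3059 CPM in FUDR and between 5147 and 5359 CPM in OP50. Of the 7 germline markers 6 fell, beside 21.0% of all genes tested. The body wall muscle markers summed to 9427, 6384 and 4152 CPM in FUDR replicates 1, 2 and 3 and to between 8442 and 9117 CPM in OP50, with unc-54 the largest part in each library. Of these 5 markers 0 were called, beside 41.0% of all genes tested. Among the muscle markers unc-27 was at 980, 939 and 947 CPM in FUDR and between 717 and 836 CPM in OP50, and hlh-1 between 3.79 and 4.22 CPM in FUDR and between 2.86 and 4.66 CPM in OP50. Of 4 stage markers, lin-41 (−1.48, edgeR adjusted p = 0.000309) and mlt-10 (−0.93, 0.00465) fell, col-19 rose (0.41, 0.0246) and vit-2 was not called (−0.54, 0.0776). The groups did not overlap for any of the 4, beside 54.7% of all genes tested. On average col-19 was at 2973 CPM in FUDR and 2243 CPM in OP50, and vit-2 at 13229 and 19226 CPM. Whether the worms were still at the labelled L4 stage when collected was not tested. In RNA from whole worms, fewer cells of a type and less RNA per cell cannot be told apart.

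Of the 9 genes, 4 fell in FUDR and 0 rose at an edgeR adjusted p under 0.05: hach-1, hphd-1 and alh-8 of the shunt and pccb-1 of the canonical pathway. Among all genes tested 21.0% fell and 20.0% rose, 41.0% in either direction. At an unadjusted p under 0.05, and with DESeq2 or limma-voom, also 0 of the 9 rose, and DESeq2 called 6 lower. The FUDR and OP50 libraries did not overlap for 6 of the 9, against 54.7% of all genes tested. All 6 lay lower in FUDR, as did 26.7% of all genes tested, while 28.0% lay higher without overlap. The median log2 fold change was −0.64 over the 5 shunt genes and −0.30 over the 4 canonical genes, against 0.05 over all genes tested. Those medians were −0.42 and −0.08 with library size only, a scaling that put the median of all genes at 0.28 and gave 5814 rises and 1931 falls, beside 3397 rises and 3582 falls with TMM. Upper quartile scaling gave 4975 rises and 2492 falls and a median of 0.20.

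**Figure D1:**
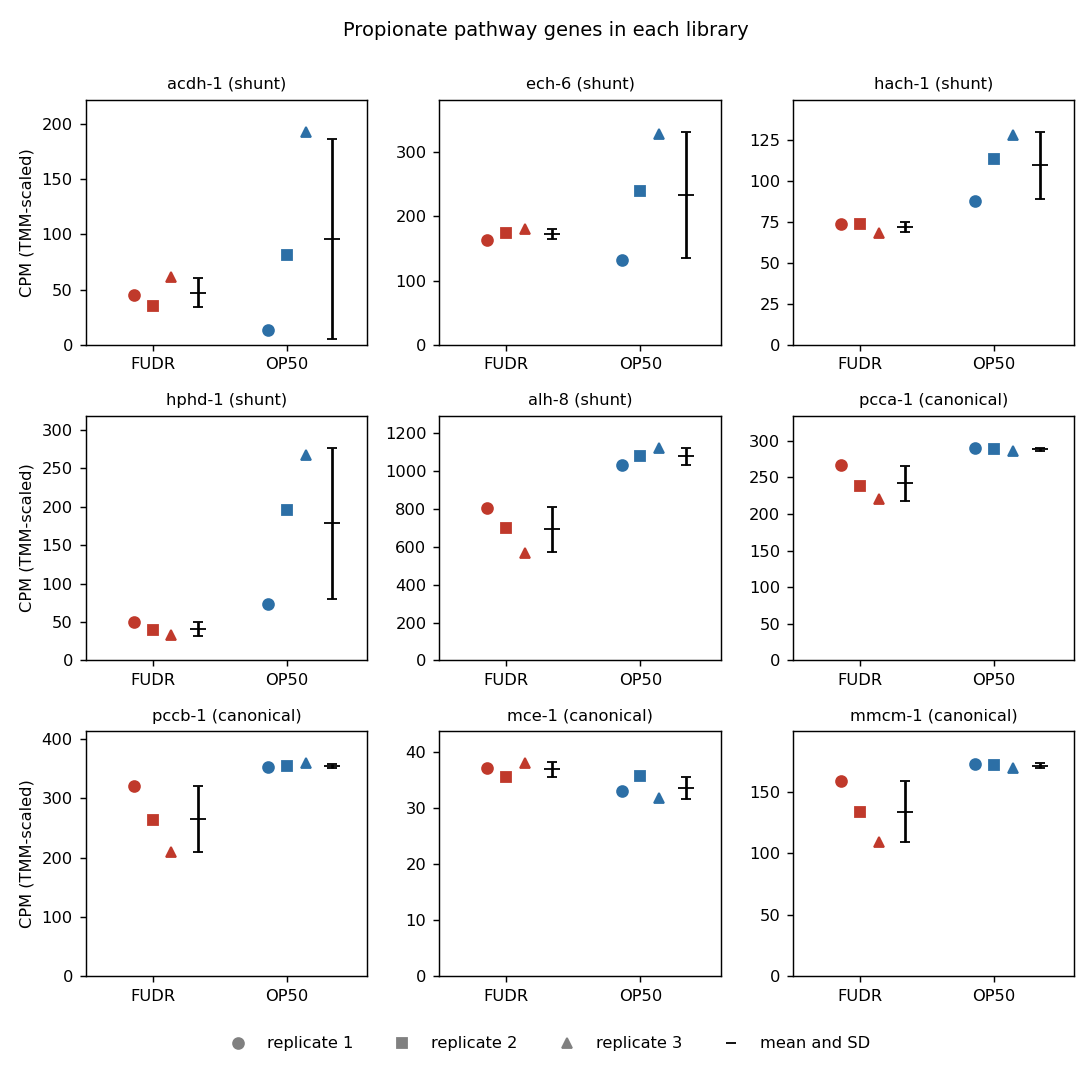
Each panel plots 1 propionate gene in CPM on a linear axis from 0, with FUDR libraries in red, OP50 libraries in blue, marker shapes for replicates and the mean with its SD beside each group. The OP50 libraries of acdh-1, ech-6 and hphd-1 lie far apart, while those of pcca-1, pccb-1 and mmcm-1 lie almost on one level.

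The first shunt gene, acdh-1 (WBGene00016943, chromosome I, 6497436 to 6499560, WBcel235), encodes the acyl-CoA dehydrogenase that starts the shunt from propionyl-CoA. It had 45.4, 34.7 and 61.0 CPM in FUDR replicates 1, 2 and 3, against 12.9, 81.3 and 193 CPM in OP50 replicates 1, 2 and 3. The groups overlapped, since OP50 replicate 1 lay below every FUDR library and OP50 replicates 2 and 3 lay above every one. The log2 fold change of −1.03 ± 0.82 (SE; adjusted p = 0.357 by edgeR) was not called. Without OP50 replicate 1 it was −1.54 (edgeR adjusted p = 0.0138), and without OP50 replicate 3 it was −0.0038 (edgeR adjusted p = 0.997). The value therefore depends on which OP50 libraries are kept. Counting error is small beside that spread: the 1224 reads in OP50 replicate 1 give an exact Poisson 95% interval of 12.2 to 13.6 CPM.

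The enoyl-CoA hydratase gene ech-6 (WBGene00001155, chromosome III, 9751552 to 9752883), which serves the next step, behaved like acdh-1 in a smaller range. It had 164, 174 and 180 CPM in FUDR, against 131, 240 and 329 CPM in OP50. OP50 replicate 1 was again below all 3 FUDR libraries and the other OP50 libraries above them. Its log2 fold change was −0.43 ± 0.277 (edgeR adjusted p = 0.244), −0.72 without OP50 replicate 1 (edgeR adjusted p = 0.00792) and −0.11 without OP50 replicate 3 (edgeR adjusted p = 0.731).

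The hydrolase gene hach-1 (WBGene00017301, chromosome III, 5555450 to 5557318) encodes the enzyme that frees 3-hydroxypropionate from coenzyme A. It fell to 73.8, 73.6 and 68.4 CPM in FUDR, against 87.5, 113 and 128 CPM in OP50. No FUDR library reached the lowest OP50 library, which was replicate 1. Between the groups the log2 fold change was −0.61 ± 0.131 (edgeR adjusted p = 0.00624), a 1.52-fold higher level in OP50, and it was called in all 6 fits that left out a library.

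The largest fall among the 9 was in hphd-1 (WBGene00012608, chromosome II, 12994354 to 12996571), which encodes the transhydrogenase that oxidizes 3-hydroxypropionate to malonate semialdehyde and passes its electrons to 2-ketoglutarate, giving D-2-hydroxyglutarate. It had 50.6, 39.2 and 32.6 CPM in FUDR, against 73.0, 195 and 267 CPM in OP50. The groups did not overlap, although OP50 replicate 1 was 3.66-fold below OP50 replicate 3. The log2 fold change was −2.13 ± 0.431 (edgeR adjusted p = 0.00658), 4.37-fold higher in OP50, and 29 of the other 17021 genes tested had a lower one. The call was lost without the filter on low counts (adjusted p = 0.0622) and without FUDR replicate 1 (0.0632) or 3 (0.12), with a log2 fold change between −2.51 and −1.72 over the 6 fits that left out a library.

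The last step belongs to alh-8 (WBGene00000114, chromosome II, 11729055 to 11731198), the gene of the dehydrogenase that turns malonate semialdehyde into acetyl-CoA. It had 805, 698 and 569 CPM in FUDR, against 1028, 1080 and 1121 CPM in OP50. The groups did not overlap, and FUDR replicate 3 was the lowest. The log2 fold change was −0.64 ± 0.132 (edgeR adjusted p = 0.0051), and all 9 other settings and all 6 fits that left out a library called it. Its last 34 exon bases are shared with F13D12.8 on the opposite strand, and the strand setting of the counting is not given in the sources used here.

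The 5 shunt genes differed in where OP50 replicate 1 lay. In OP50 replicate 1 the first gene, acdh-1, lay below its FUDR level, while hphd-1 and alh-8 lay above theirs. The per-length ratio of hphd-1 to acdh-1 was 1.13, 1.14 and 0.54 in FUDR replicates 1, 2 and 3, against 5.73, 2.43 and 1.40 in OP50 replicates 1, 2 and 3. That of hphd-1 to ech-6 was between 0.111 and 0.189 in FUDR and between 0.34 and 0.497 in OP50. Neither ratio overlapped between the groups, and both were chosen after their values were seen and not tested.

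The spread inside the OP50 group was itself uneven across the pathway. Among 10356 genes averaging 5 CPM or more, the ratio of the highest to the lowest library of a group had a median of 1.21 in FUDR and 1.11 in OP50. For acdh-1 it was 1.76 in FUDR and 15.02 in OP50. Only 2 genes, clc-32 and tts-1, named here after their values were seen, had a wider OP50 ratio than acdh-1, and clc-32 had 0 counts in 2 OP50 libraries. The ratio of hphd-1 was 1.55 in FUDR and 3.66 in OP50, where 23 genes had a wider one. That of ech-6 was 1.10 in FUDR and 2.503 in OP50, with 60 genes wider, and that of hach-1 1.08 in FUDR and 1.46 in OP50, with 625 wider. The last shunt gene, alh-8, had 1.42 in FUDR and 1.09 in OP50, which is below the OP50 median of all genes.

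The intestinal marker sum was 2162, 1978 and 1929 CPM in FUDR replicates 1, 2 and 3 and 1791, 1840 and 2061 CPM in OP50 replicates 1, 2 and 3. The hypodermal sum was 368, 367 and 342 CPM in FUDR and 575, 482 and 450 CPM in OP50, with sqt-3 its largest part in each library. Of the 7 hypodermal markers 2 fell, sqt-3 (−0.75) and nhr-23 (−0.73), and 0 rose, beside 21.0% and 20.0% of all genes tested. Not called were bli-1 (−0.42), dpy-7 (−0.04), rol-6 (−0.03), elt-3 (0.14) and grl-15 (0.33). Intestine and hypodermis are tissues where acdh-1 is known to be active. The largest part of the intestinal sum was act-5, at 997, 932 and 1109 CPM in OP50 replicates 1, 2 and 3. The part of these tissues and of the stage markers in the spread of acdh-1 was not tested.

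**Figure D2:**
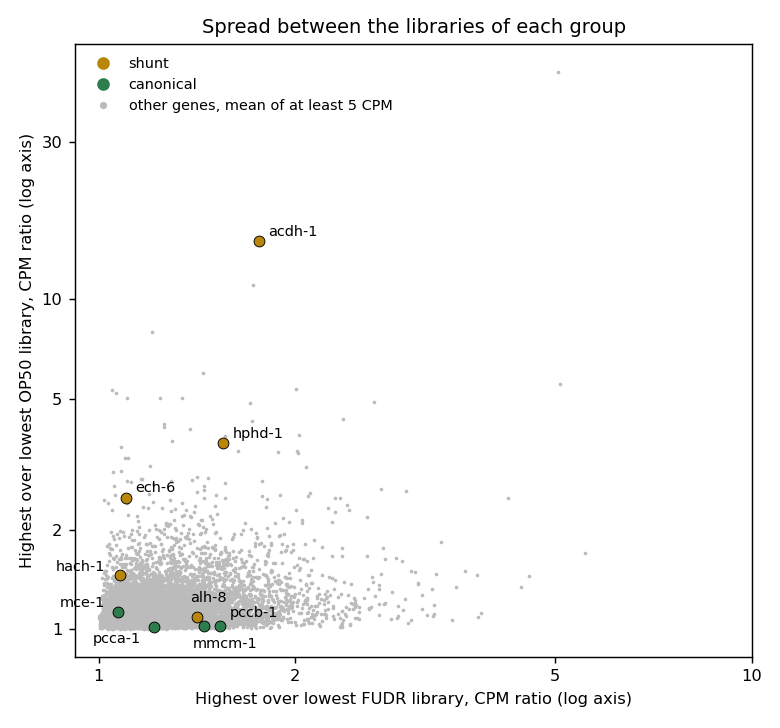
Each point is a gene averaging 5 CPM or more, with the ratio of its highest to its lowest FUDR library on the horizontal log axis and the same ratio for OP50 on the vertical log axis. Genes with a library at 0 are not drawn. The shunt genes acdh-1 at 15.02, hphd-1 at 3.66 and ech-6 at 2.503 stand high on the OP50 axis, while pcca-1, pccb-1 and mmcm-1 lie at about 1.02.

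For 3 of the 4 canonical genes, pcca-1, pccb-1 and mmcm-1, the OP50 libraries lay close together and the FUDR libraries were spread, with mce-1 as the exception. The carboxylase α subunit gene pcca-1 (WBGene00017864, chromosome X, 7657542 to 7660986) had 267, 238 and 220 CPM in FUDR, against 290, 289 and 285 CPM in OP50. The groups did not overlap, and the log2 fold change of −0.25 ± 0.0957 (edgeR adjusted p = 0.063) was not called. The β subunit gene pccb-1 (WBGene00018701, chromosome X, 3089549 to 3092437) had 321, 264 and 209 CPM in FUDR, against 352, 353 and 359 CPM in OP50.

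The pccb-1 groups did not overlap, and FUDR replicate 1 came closest to the OP50 level. It fell by 0.42 ± 0.144 on the log2 scale (edgeR adjusted p = 0.0425). That call ended with upper quartile scaling (adjusted p = 0.108), library size only (0.164), a 5 CPM filter (0.082), and when FUDR replicate 2 (0.116) or any OP50 library was left out (0.0804 without replicate 1, 0.1 without 2 and 0.101 without 3). The gene shares 43 exon bases with wrt-2 on the opposite strand. The per-length ratio of pcca-1 to pccb-1, whose products form 1 enzyme, was 0.634, 0.688 and 0.801 in FUDR and between 0.605 and 0.627 in OP50.

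The epimerase gene mce-1 (WBGene00008415, chromosome I, 7582106 to 7583333) was the only one of the 9 with a positive log2 fold change. It had 37.1, 35.5 and 37.9 CPM in FUDR, against 33.1, 35.7 and 31.8 CPM in OP50, and the groups overlapped. The log2 fold change of 0.14 ± 0.0811 (edgeR adjusted p = 0.208) was not called, though it was called higher with library size only (0.36, adjusted p = 0.0124), upper quartile scaling (0.29, 0.0236) and the 5 CPM filter (0.25, 0.0343).

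The mutase gene mmcm-1 (WBGene00014202, chromosome III, 3903185 to 3907687), whose product carries vitamin B12 as its cofactor, had 159, 133 and 110 CPM in FUDR, against 173, 172 and 169 CPM in OP50. No FUDR library reached the OP50 range, but the log2 fold change of −0.36 ± 0.128 (edgeR adjusted p = 0.052) missed the threshold. DESeq2 (adjusted p = 0.0253), limma-voom (0.0461), RLE scaling (0.0454) and a fit without the filter (0.0239) called it lower. Upper quartile scaling (edgeR adjusted p = 0.16), library size only (0.298) and the 5 CPM filter (0.11) did not.

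In FUDR, pcca-1, pccb-1, mmcm-1, hphd-1 and alh-8 were highest in replicate 1 and lowest in replicate 3. So were the marker sums of body wall muscle, germline (3059, 2693 and 2189 CPM), intestine, hypodermis and neurons (340, 337 and 308 CPM). Every germline marker had that order, but the other lists were mixed. In neurons egl-3 had it (149, 131 and 103 CPM), while unc-119, rab-3, snb-1 and ric-4 were lowest in replicate 1. In hypodermis sqt-3, nhr-23 and bli-1 had it. There dpy-7, rol-6 and grl-15 ran the opposite way, as did mtl-2 in intestine, and elt-3 was highest in replicate 3. The part of these marker sums in the results was not tested. The 4 canonical genes together summed to 784, 671 and 576 CPM in FUDR replicates 1, 2 and 3 and to between 845 and 850 CPM in OP50. Without FUDR replicate 1, the log2 fold changes were −0.59 for pccb-1 (edgeR adjusted p = 0.00336), −0.50 for mmcm-1 (0.0047) and −0.33 for pcca-1 (0.0156), all 3 called lower. Without FUDR replicate 3 they were −0.28 for pccb-1, still called (edgeR adjusted p = 0.0351), −0.23 for mmcm-1, also called (edgeR adjusted p = 0.0492), and −0.19 for pcca-1, not called (edgeR adjusted p = 0.0715).

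**Figure D3:**
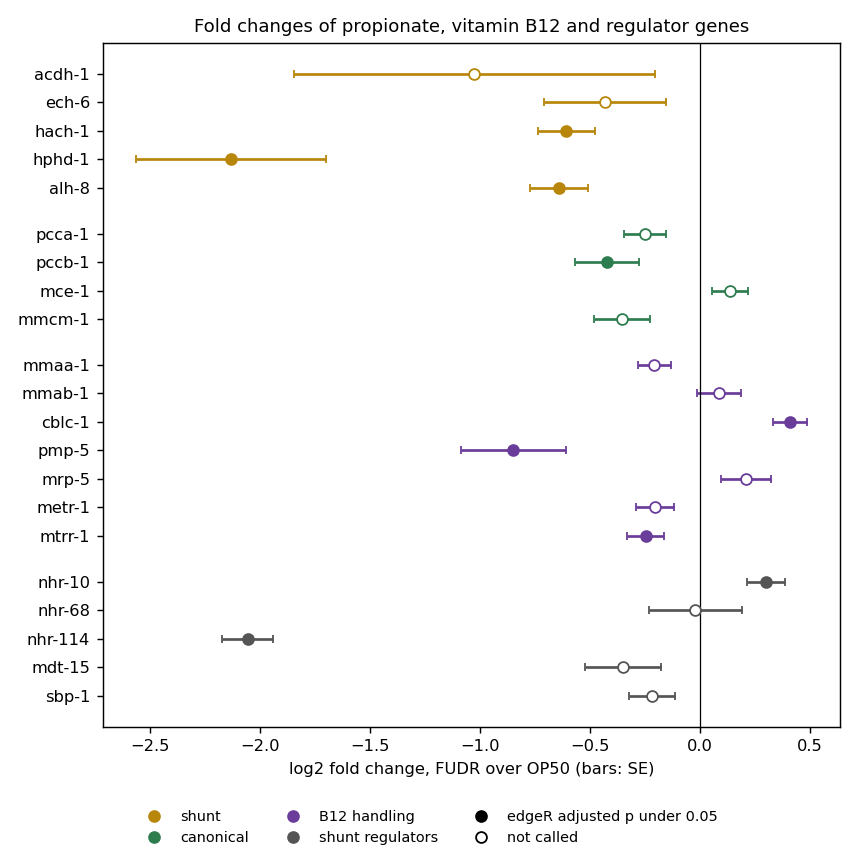
Log2 fold changes of FUDR over OP50 with their SE for the shunt, canonical, vitamin B12 handling and regulator genes, where filled points passed an edgeR adjusted p under 0.05 and open points did not. The longest bar is that of acdh-1 (SE 0.82), and the points farthest to the left are hphd-1 at −2.13 and nhr-114 at −2.06.

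Levels of different genes can be compared only per length, here as TPM, counts over merged exon length scaled to a common total. In both groups alh-8 had the highest per-length level, with 496 ± 89.8 TPM in FUDR and 727 ± 10.7 TPM in OP50 (SD, n = 3 each). It was followed by ech-6, with 216 ± 9.16 TPM in FUDR and 272 ± 108 TPM in OP50, whose range overlapped that of pccb-1 in both groups. The carboxylase gene pccb-1 had 181 ± 39.7 TPM in FUDR and 228 ± 7.57 TPM in OP50, and pcca-1 had 126 ± 13.4 TPM in FUDR and 141 ± 6.59 TPM in OP50.

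Below pcca-1 the order differed between the groups. In FUDR hphd-1 was the lowest of the 9, with 31.2 ± 7.17 TPM, and its range overlapped that of acdh-1 (35.5 ± 9.36 TPM). In OP50 hphd-1 stood between pcca-1 and hach-1 with 127 ± 66.9 TPM and acdh-1 between mmcm-1 and mce-1 with 66.9 ± 62.9 TPM. From pcca-1 down to mce-1 (57.7 ± 1.03 TPM in FUDR, 49.5 ± 3.32 TPM in OP50) every pair of neighbours in the OP50 order had overlapping ranges. The remaining genes, hach-1 (61.2 ± 3.6 TPM in FUDR, 87.5 ± 13.2 TPM in OP50) and mmcm-1 (68.8 ± 13.2 TPM in FUDR, 82.9 ± 4.01 TPM in OP50), overlapped each other in both groups.

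The geometric mean per-length level of the 5 shunt genes divided by that of the 4 canonical genes was 0.911, 0.92 and 1.06 in FUDR replicates 1, 2 and 3. In OP50 replicates 1, 2 and 3 it was 0.764, 1.58 and 2.28. The OP50 libraries lay on both sides of the FUDR ones, with replicate 1 the lowest of all 6. The canonical mean was between 84.3 and 110 TPM in FUDR and between 103 and 112 TPM in OP50, and the shunt mean between 89.1 and 99.9 TPM in FUDR and between 85.5 and 234 TPM in OP50.

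**Figure D4:**
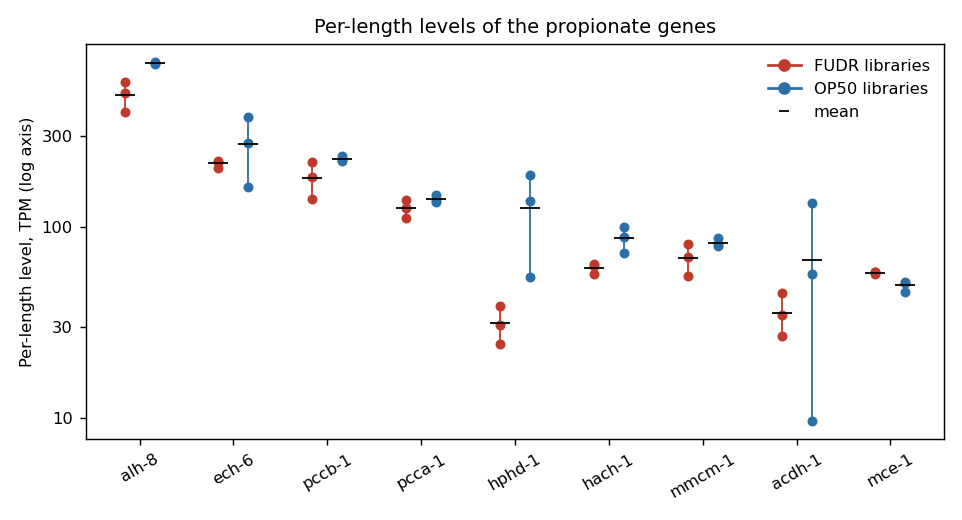
Per-length levels in TPM on a log axis for the 9 propionate genes, ordered by their OP50 mean, with a point per library, a line over the range and a black dash for the mean of each group. The gene hphd-1 is the lowest in FUDR, at 31.2 TPM, and lies just below pcca-1 in OP50, at 127 TPM, and the OP50 line of acdh-1 spans 9.60 to 134 TPM.

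Genes that handle vitamin B12 changed in both directions: of 7 tested, 1 rose and 2 fell, beside 20.0% and 21.0% of all genes tested, with a median log2 fold change of −0.20. The gene pmp-5, for an ABC transporter related to the human lysosomal vitamin B12 carrier ABCD4, had 27.3, 26.2 and 33.5 CPM in FUDR, against 34.7, 49.8 and 72.2 CPM in OP50. The groups did not overlap, OP50 replicate 1 was the lowest OP50 library, and the fall of −0.85 ± 0.238 (edgeR adjusted p = 0.0225) was lost without FUDR replicate 1 (adjusted p = 0.11), 2 (0.0773) or 3 (0.0932), without OP50 replicate 2 (0.0525), with library size only (0.0722) and without the filter on low counts (0.108). The cobalamin-processing gene cblc-1, related to human MMACHC, rose, with 33.0, 34.1 and 32.8 CPM in FUDR, against 25.8, 24.5 and 24.9 CPM in OP50 (0.41 ± 0.0764, edgeR adjusted p = 0.00327).

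The methionine synthase reductase gene mtrr-1 fell to 65.3, 65.2 and 67.2 CPM in FUDR, against 72.0, 77.6 and 85.2 CPM in OP50 (−0.25 ± 0.0841, edgeR adjusted p = 0.0429), a call lost without FUDR replicate 1 (0.0633) or 2 (0.135), without OP50 replicate 2 (0.111) or 3 (0.171), and in 5 of the 9 other settings (adjusted p between 0.0508 and 0.884). The methionine synthase gene metr-1, whose product also uses vitamin B12, was not called (−0.20, edgeR adjusted p = 0.0906). Nor were the genes mmaa-1 (−0.21, 0.0551), for the chaperone that loads the mutase, mmab-1 (0.08, 0.527), for the adenosyltransferase that makes its cofactor, and mrp-5 (0.21, 0.173), for an intestinal ABC exporter. DESeq2 called metr-1 (adjusted p = 0.0385) and mmaa-1 (0.0392) lower, as did RLE scaling (0.0436) and the fit without FUDR replicate 3 (0.0463) for mmaa-1. With library size only metr-1 and mmaa-1 were at 0.0225 and 0.021 on the log2 scale and mmab-1 was called higher (0.32, adjusted p = 0.0489). The mrp-5 gene was called higher with library size only (0.43, adjusted p = 0.00464), upper quartile scaling (0.35, 0.0195), the 5 CPM filter (0.31, 0.0338) and without FUDR replicate 3 (0.30, 0.0133).

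Among 5 genes listed as regulators of the shunt or of the methionine cycle, nhr-114 fell, nhr-10 rose and 3 were not called. Of all genes tested, 21.0% fell and 20.0% rose. The nuclear receptor gene nhr-114, whose product is known to activate methionine cycle genes when that cycle runs low, had 18.0, 14.6 and 19.7 CPM in FUDR, against 68.7, 73.9 and 74.8 CPM in OP50. The groups were far apart. The ratio of the highest to the lowest library was 1.35 in FUDR and 1.09 in OP50, beside medians of 1.21 and 1.11 over genes averaging 5 CPM or more. The log2 fold change was −2.06 ± 0.117 (edgeR adjusted p = 2.18e-05), 4.16-fold higher in OP50, called in every setting and every fit without a library. The SE of hphd-1, whose fold was 4.37, was 0.431.

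The receptors NHR-10 and NHR-68 are known to act together in switching on the shunt when propionate persists. The gene nhr-10 had 20.2, 20.9 and 21.9 CPM in FUDR, against 16.4, 17.5 and 17.2 CPM in OP50, a rise of 0.30 ± 0.0862 (edgeR adjusted p = 0.0223) that was lost without FUDR replicate 2 (adjusted p = 0.0727) and without OP50 replicate 1 (0.0774), 2 (0.0656) or 3 (0.0708). The gene nhr-68 had 35.5, 34.6 and 31.7 CPM in FUDR, against 22.7, 36.8 and 44.0 CPM in OP50, with no call (−0.02 ± 0.21, edgeR adjusted p = 0.945) and a positive sign with 2 of the other scalings. As for acdh-1 and ech-6, OP50 replicate 1 was the lowest nhr-68 library of all 6 and OP50 replicate 3 the highest, whereas nhr-10 lay between 16.4 and 17.5 CPM in the 3 OP50 libraries. The Mediator subunit gene mdt-15 (−0.35, edgeR adjusted p = 0.133) and the SREBP gene sbp-1 (−0.22, 0.127) were not called, but both were called lower without FUDR replicate 1 (−0.54, adjusted p = 0.0191, and −0.33, 0.0151).

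Of the genes outside the 9, the BE0003N10.6 gene had the profile most like acdh-1 over the 6 libraries, by the root mean square difference of mean-centred log2 CPM among 10347 genes (0.48). It had 4.81, 4.55 and 7.82 CPM in FUDR, against 1.46, 16.1 and 12.6 CPM in OP50. T05E12.6 (0.58), the astacin protease gene nas-27 (0.70), C23H5.8 (0.73) and dhgd-1 (0.74) came next. All 5 were lowest in OP50 replicate 1 and above every FUDR library in OP50 replicates 2 and 3, and none was called between the groups (edgeR adjusted p between 0.173 and 0.493). Without OP50 replicate 1, all 5 were called lower (edgeR adjusted p between 0.00479 and 0.0342). The 5 were chosen for their likeness to acdh-1 over these same 6 libraries. Their shared pattern and these calls therefore follow from the choice and are no separate support.

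The dhgd-1 gene, which belongs to the lists chosen for this pathway, encodes the dehydrogenase that removes the D-2-hydroxyglutarate made by HPHD-1. It had 63.3, 63.7 and 70.8 CPM in FUDR, against 51.1, 101 and 143 CPM in OP50. Its log2 fold change was −0.58 ± 0.31 (edgeR adjusted p = 0.173), −0.89 without OP50 replicate 1 (edgeR adjusted p = 0.00479) and −0.21 without OP50 replicate 3 (edgeR adjusted p = 0.538). Among the 9 propionate genes, ech-6 was closest to acdh-1 (0.79), followed by hach-1 (1.03) and hphd-1 (1.06).

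**Figure D5:**
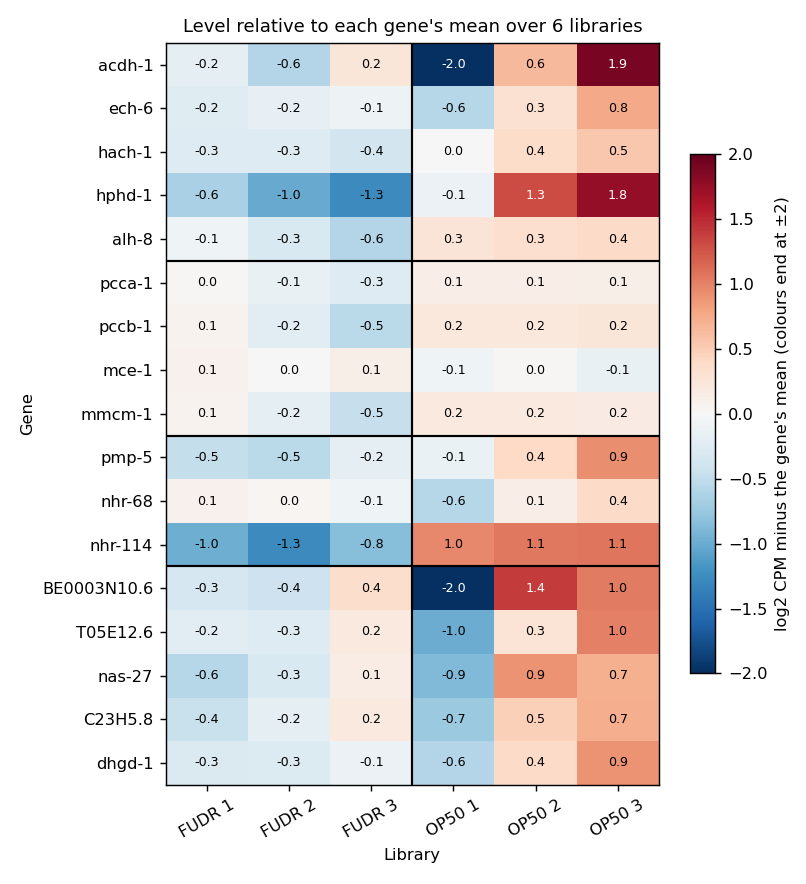
Rows are the 9 propionate genes, then pmp-5, nhr-68 and nhr-114, then the 5 genes with profiles most like acdh-1; columns are the libraries, FUDR left and OP50 right. Colour and number give log2 CPM minus the gene's mean over the 6 libraries. The acdh-1 row is lowest in OP50 replicate 1 and highest in OP50 replicate 3, while nhr-114 is below its mean in every FUDR library and above it in every OP50 library.

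Of 11 genes of branched-chain amino acid breakdown, 6 fell and 0 rose, also 0 at an unadjusted p under 0.05 and with DESeq2 or limma-voom, beside 21.0% and 20.0% of all genes tested. Their median log2 fold change was −0.46. Among others, the list holds steps that valine, isoleucine and leucine share and 3 genes of leucine breakdown, ivd-1, mccc-1 and mccc-2, a route that does not give propionyl-CoA. Of these 3, mccc-2 was not called and mccc-1 fell (−0.46, edgeR adjusted p = 0.00935). The isovaleryl-CoA dehydrogenase gene ivd-1 had 194, 172 and 160 CPM in FUDR, against 291, 310 and 319 CPM in OP50 (−0.81 ± 0.0991, edgeR adjusted p = 0.000513). The subunit genes of the branched-chain ketoacid dehydrogenase, which commits all 3 amino acids to breakdown, also fell: dbt-1 by 0.67 ± 0.0924 (edgeR adjusted p = 0.000828), bckd-1A by 0.82 ± 0.137 (0.00189) and bckd-1B by 0.52 ± 0.0944 (0.00293). For these 4 genes, which had the smallest p of the list, no FUDR library reached the OP50 range, as for 26.7% of all genes tested. Every fit that left out a library called them.

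Downstream, where the canonical pathway enters the citric acid cycle, 3 of 4 succinyl-CoA ligase genes fell, beside 21.0% of all genes tested: suca-1 by 0.63 ± 0.105 (edgeR adjusted p = 0.00183), sucg-1 by 0.45 ± 0.0896 (0.00427) and sucl-1 by 0.32 ± 0.0979 (0.0303). The fourth, sucl-2, was not called (edgeR adjusted p = 0.0692). The sucg-1 call was lost with library size only (adjusted p = 0.078), and that of sucl-1 in 4 of the 9 other settings (adjusted p of up to 0.366) and without FUDR replicate 2 (0.121) or OP50 replicate 2 (0.111) or 3 (0.102).

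The enzyme families of the shunt were mixed. Of 13 acyl-CoA dehydrogenase genes, acdh-1 included, 3 fell and 1 rose, beside 21.0% and 20.0% of all genes tested, with a median of −0.03: acdh-13 (−0.77, edgeR adjusted p = 0.000206), acdh-12 (−0.47, 0.0038) and acdh-7 (−0.61, 0.0437) fell. The gene that rose was acdh-2, a paralog of acdh-1, with 4.89, 3.54 and 2.58 CPM in FUDR, against 0, 1.07 and 0.756 CPM in OP50 (edgeR adjusted p = 0.0378). That call was lost without FUDR replicate 1 (adjusted p = 0.183), 2 (0.0791) or 3 (0.147), without OP50 replicate 3 (0.0562), and with DESeq2 (0.196), library size only (0.0503) or no filter (0.188). The acdh-7 call was lost without FUDR replicate 2 (0.0986) or OP50 replicate 2 (0.125) or 3 (0.0827), and with upper quartile scaling (0.0747), library size only (0.0893), no filter (0.104) or the 5 CPM filter (0.0644). Reads from stretches that acdh-1 and acdh-2 may share could be dropped by the counting.

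Of 10 enoyl-CoA hydratase genes, ech-6 included, 2 rose and 2 fell, with a median of −0.12. That is a share each way near the 20.0% and 21.0% of all genes tested. The genes that rose were ech-9, with 6.03, 6.79 and 6.11 CPM in FUDR, against 1.90, 1.01 and 1.59 CPM in OP50 (2.06 ± 0.218, edgeR adjusted p = 0.000271), and ech-8 (0.85 ± 0.185, 0.00673). Those that fell were ech-7 (−0.75 ± 0.194, edgeR adjusted p = 0.0158) and ech-1.2, for the trifunctional protein's α subunit (−0.34 ± 0.094, 0.0193). Of 12 tested aldehyde dehydrogenase genes 5 fell and 0 rose (also 0 at an unadjusted p under 0.05 and with DESeq2 or limma-voom), beside 21.0% and 20.0% of all genes tested, with a median of −0.25. They included alh-13, at 21.6, 18.3 and 19.1 CPM in FUDR, against 61.6, 51.8 and 50.9 CPM in OP50 (−1.48 ± 0.106, edgeR adjusted p = 6.7e-05), alh-3 (−0.36, 0.0184) and alh-11 (−0.45, 0.0197). Without FUDR replicate 2, ech-7 (adjusted p = 0.0535), ech-1.2 (0.0589), alh-3 (0.0538) and alh-11 (0.0561) were not called. Nor were ech-1.2 (0.0827 and 0.0598) and alh-3 (0.0534 and 0.0625) without OP50 replicate 2 or 3, and alh-11 (0.0695) without OP50 replicate 3. Library size only lost the calls of ech-7 (0.111), ech-1.2 (0.259), alh-3 (0.213) and alh-11 (0.101). Upper quartile scaling lost those of ech-1.2 (0.0815), alh-3 (0.0715) and alh-11 (0.0547), and no filter that of ech-7 (0.0598).

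The genes pod-2 and pyc-1, not a full set, were listed for biotin-dependent carboxylases that share their chemistry with PCCA-1 and PCCB-1. The acetyl-CoA carboxylase gene pod-2 had 412, 340 and 292 CPM in FUDR, against 1044, 781 and 810 CPM in OP50 (−1.34 ± 0.158, edgeR adjusted p = 0.000438). The pyruvate carboxylase gene pyc-1 was not called (edgeR adjusted p = 0.499). Over all these lists, 60 genes other than the 9 were tested, of which 22 fell (36.7%) and 5 rose (8.33%), beside 21.0% and 20.0% of all genes tested, with a median log2 fold change of −0.25. With library size only, 11 of them fell and 9 rose, and without FUDR replicate 2, 13 fell and 3 rose, while without OP50 replicate 3 the number that rose was also 3. The part of the lower germline share in FUDR in these counts was not tested.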

How the data were processed

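RNA of whole worms was sequenced after poly(A) selection with NEBNext kits, per the labels' protocols. The authors deposited 1 table of raw read counts per gene. STAR, HTSeq and the build WBcel235 are listed in the submitters' processing notes. The sources used here do not state their versions, the annotation release or the strand setting. Its 5 HTSeq summary rows, between 4.55% and 5.33% of counts per library, were left out of library sizes and tests.

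The test was edgeR 4.0.16 under R 4.3.3 on counts (filterByExpr by group with minimum count 10 and minimum total 15, TMM, robust quasi-likelihood F test, no covariate), with Benjamini-Hochberg adjustment over all 17022 genes tested and a threshold of 0.05. The SE is the log2 fold change divided by the square root of F. Every fold change is FUDR over OP50 unless stated. Positions, symbols and merged exon lengths came from Ensembl release 115 of WBcel235 and the gene name table given with it, where all 9 genes matched. Every pair of replicate libraries differed by more than sampling noise (lowest chi-square per degree of freedom, 19.6, over genes with at least 20 counts in a pair). Intervals cover counting error only.

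The 9 genes and all lists were chosen with earlier results of these data known. Named are the 9, all vitamin B12 and regulator genes, up to 4 called genes with the smallest p per other list, and the 5 genes closest to acdh-1 (log2 CPM with prior count 2). Any other gene named was picked with its values known. Alternatives tried were RLE, upper quartile and no scaling factor, DESeq2 1.42.0, limma-voom (limma 3.58.1), 2 other filters on low counts, a non-robust fit, a replicate block and leaving out each library. The edgeR script was checked on simulated counts.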

Additional observations from a re-analysis of the deposited data

How the results depend on the processing

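The falls of hach-1 and alh-8 were called in all 9 other settings and in all 6 fits without a library. The hphd-1 call was lost without the filter on low counts (−2.13, adjusted p = 0.0622) and gave −2.51 to −1.72 over the fits without a library. For pccb-1, upper quartile scaling (−0.28), library size only (−0.21) and the 5 CPM filter (−0.32) lost the call, and the fits without a library gave −0.59 to −0.28. The mmcm-1 gene was called lower with RLE scaling (−0.38), DESeq2 (−0.38), limma-voom (−0.37), no filter (−0.36) and the replicate block (−0.37, adjusted p = 0.0409), with −0.50 to −0.23 over the fits without a library. It was not called with upper quartile scaling (−0.21), library size only (−0.14) or the 5 CPM filter (−0.25). DESeq2 called pcca-1 (−0.27), which ran from −0.33 to −0.19 without a library. Not called, pcca-1 was at −0.03 with library size only (edgeR adjusted p = 0.789), −0.10 with upper quartile scaling (0.333) and −0.14 with the 5 CPM filter (0.171). Upper quartile scaling (0.29), library size only (0.36) and the 5 CPM filter (0.25) called mce-1 higher, so that 1 of the 9 genes rose in each. Without a library, acdh-1 ran from −1.54 to −0.0038 and ech-6 from −0.72 to −0.11, each called only without OP50 replicate 1. The number of the 9 that fell was 3 to 6 over all settings. In the related lists, upper quartile scaling gave 8 rises, and library size only 9 rises and 11 falls. Without a library, 3 to 6 rose and 13 to 26 fell. Library size only gave 5814 rises and 1931 falls over all genes. The sign of nhr-68 was positive with upper quartile scaling (0.13), library size only (0.21), limma-voom (0.0414), the 5 CPM filter (0.0894) and the replicate block (0.0262), and ran from −0.25 to 0.19 without a library. T05E12.6 also changed sign, with −0.77 to 0.14 without a library. With library size only, metr-1 (0.0225), mmaa-1 (0.021) and sbp-1 (0.0037) were also positive. The cause of these changes was not tested, except that library size only shifts every fold change up by about the move of the median of all genes, to 0.28. Same-numbered FUDR and OP50 libraries did not deviate together (correlations of 0.0551, −0.0166 and 0.0576), so the number was not taken to pair them, and the labels do not say what it stands for. The replicate block gave 5 of the 9 genes lower and lost the calls of mtrr-1 (adjusted p = 0.0508) and sucl-1 (0.0587). Counting error was small beside the spread of acdh-1 in OP50, and each group had 3 libraries.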
